A study of Mus musculus with 9 samples.

Results

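The genes of elastic fibres and of the fibulins were followed through 3 populations of mouse activated hepatic stellate cells (aHSCs), the myofibroblasts that lay down scar in the injured liver. The 10 genes were chosen by name: Eln, Fbn1, Fbln1, Fbln2, Fbln5, Efemp1, Efemp2, Mfap2, Mfap4 and Mfap5. They were represented by 20 of the 45281 gene probes of the Illumina MouseWG-6 v2.0 bead array, and 17 of the 20 passed the detection filter, which kept 20573 probes in all. All 9 samples were labelled as aHSCs from male C57/Bl6 mice of genotype WT1GFP/+ (the methods give both sexes for work in culture), in which green fluorescent protein is expressed from 1 allele of WT1, so that fluorescence reported WT1 expression and every group carried the altered allele. WT1-high cells (GFP high, n = 3) and WT1-intermediate cells (GFP low in the labels, n = 3) were sorted directly from livers chronically injured with carbon tetrachloride. WT1-negative cells (GFP negative, n = 3) were sorted from quiescent stellate cells of uninjured liver kept for 7 days on plastic, where such cells become activated. In both comparisons with WT1-negative cells, WT1 status, liver against culture and the deposited table therefore cannot be told apart. The contrast of the WT1-expressing populations with each other lies within the injured liver and compares cells sorted by the amount of reporter. These populations also differed in macrophage and endothelial genes, given below, so amount of reporter and sample composition cannot be told apart.

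Elastic fibres consist of a core of cross-linked elastin laid upon a scaffold of fibrillin microfibrils. Tropoelastin, the soluble product of Eln, is aligned with the help of fibulins and cross-linked by lysyl oxidases, and the microfibrils also hold latent transforming growth factor β binding proteins. In fibrotic liver, elastic fibres accumulate in mature scar, and stellate cells, portal fibroblasts and other mesenchymal cells are known sources of their components.

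Of the 9 genes with a tested probe, none was called higher and 2 were called lower in the WT1-high group than in the WT1-intermediate group (Mfap2 and Mfap5), where 3.55% of all tested probes were called in either direction and 2.64% were called lower. Against WT1-negative cells, 7 of 9 were called higher in WT1-high cells (26.5% of all tested probes were called higher and 59.6% in either direction). The same comparison called 8 of 9 higher in WT1-intermediate cells, where 24.4% of probes were called higher and 58.0% in either direction. No gene, by its brightest probe, was called lower in either comparison with WT1-negative cells, where 33.1% and 33.6% of all tested probes were. The arrays of the groups did not overlap for 7 of 9 genes between WT1-high and WT1-negative cells and for 8 of 9 between WT1-intermediate and WT1-negative cells, beside 68.4% and 65.5% of all tested probes. A call means an adjusted p below 0.05 by limma with Benjamini-Hochberg adjustment over all 20573 probes, and the brightest probe on average over the 9 arrays stands for a gene. The median log2 difference of the 9 genes was -0.30 for WT1-high minus WT1-intermediate, 1.24 for WT1-high minus WT1-negative and 1.88 for WT1-intermediate minus WT1-negative, beside 0.048, -0.098 and -0.13 over all tested probes. In bulk samples such as these, fewer cells expressing a gene and less RNA per cell cannot be told apart.

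**Figure D1:**
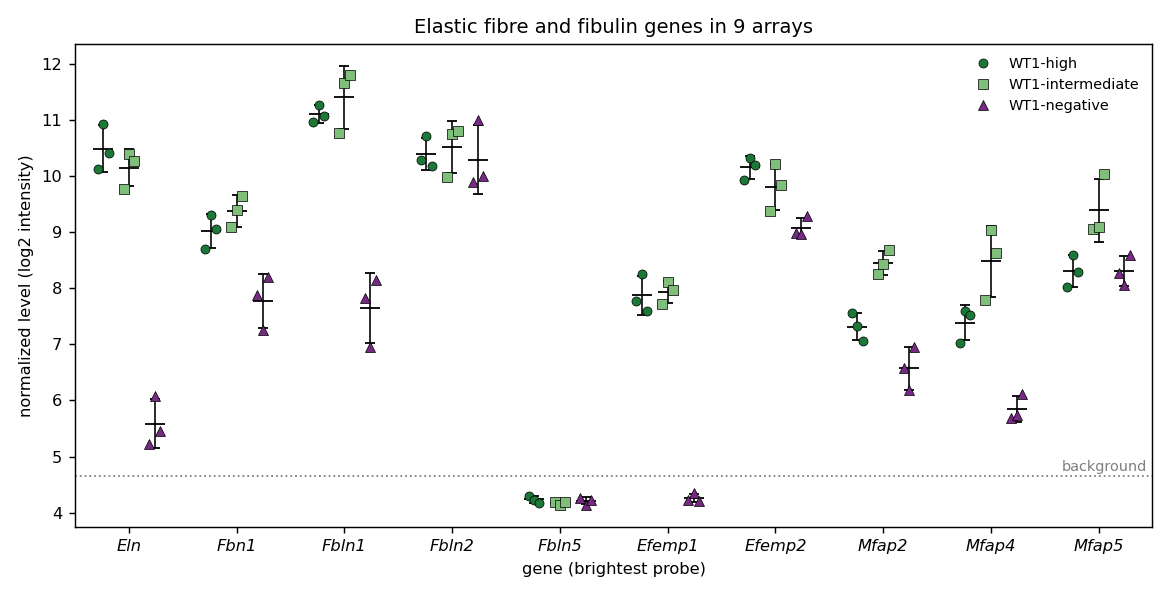
Normalized level (log2 intensity, vertical axis) of the brightest probe of each of the 10 genes in every array. Points are single arrays (3 per group), horizontal bars are group means with the SD, and the dotted line at 4.65 is the highest, over the 9 arrays, of the lowest level at which a probe was detected. The WT1-negative arrays lie between 5.23 and 6.07 for Eln, below all arrays of the other groups, whereas for Fbln2 the 3 groups overlap.

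Eln (chromosome 5, 1 probe) encodes tropoelastin, the core of the fibre. Its log2 level was 10.12, 10.93 and 10.42 in WT1-high replicates 1, 8 and 29, 9.77, 10.39 and 10.28 in WT1-intermediate replicates 1, 8 and 30, and 5.23, 6.07 and 5.46 in WT1-negative replicates 3, 11 and 14. The WT1-expressing arrays overlapped with each other, and all 6 stood far above the 3 WT1-negative arrays. Eln was 29.9-fold higher in WT1-high than in WT1-negative cells (log2 difference 4.90, SE 0.27, limma adjusted p = 7.6e-08). WT1-intermediate cells were 23.6-fold higher (4.56, SE 0.27, limma adjusted p = 1.7e-07). WT1-high minus WT1-intermediate came to 0.34 (95% confidence interval -0.24 to 0.93, limma adjusted p = 0.56), which did not pass the test. Of the 8 genes whose brightest probe was detected on all 9 arrays, Eln differed most from WT1-negative cells, in either WT1-expressing group.

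Fbn1 encodes fibrillin-1, the main protein of the microfibril scaffold. Its brightest probe read 8.70, 9.30 and 9.06 in WT1-high cells, 9.09, 9.39 and 9.65 in WT1-intermediate cells, and 7.88, 7.25 and 8.20 in WT1-negative cells (log2 levels, replicates in the order above). The WT1-negative arrays were the lowest 3 of the 9, and the other groups overlapped. Fbn1 was 2.36-fold higher in WT1-high than in WT1-negative cells (log2 difference 1.24, SE 0.25, limma adjusted p = 0.0014), and 3.03-fold higher in WT1-intermediate cells (1.60, limma adjusted p = 0.00025). WT1-high minus WT1-intermediate came to -0.36 (95% confidence interval -0.91 to 0.19, limma adjusted p = 0.51).

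The 3 Fbn1 probes did not give the same result, and the first 30 bases of each are shown because the direction depends on which is read. The brightest was designed on an oligonucleotide set and the others on RIKEN cDNA clones, per the annotation of the array.
Fbn1 brightest probe: gttcttgtgtggattaaggctggaggggcc
Fbn1 dimmer probe (RIKEN clone): agatagtagccttctgtggccttactgtta
Fbn1 undetected probe (RIKEN clone): agtcgccgggttctggctctgcagctagtt
The dimmer probe read 4.90, 5.10 and 5.38 in WT1-high cells, 5.97, 5.91 and 6.34 in WT1-intermediate cells, and 5.99, 5.58 and 6.15 in WT1-negative cells. On it the WT1-high arrays were the lowest 3, with a log2 difference of -0.95 from WT1-intermediate cells (limma adjusted p = 0.026) and of -0.78 from WT1-negative cells (limma adjusted p = 0.0054). The former call ended when any of 4 single arrays was left out, with a limma adjusted p of up to 0.093. The difference from WT1-negative cells is opposite in sign to that of the brightest probe. WT1-intermediate minus WT1-negative was 0.17 on this probe (limma adjusted p = 0.48). The remaining probe was not detected on any array.

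The fibulins are glycoproteins that connect elastin, microfibrils and the basement membrane. Fbln1 (fibulin-1, chromosome 15), which lies within the elastin core of mature fibres, had 5 probes. Its brightest probe read 10.96, 11.27 and 11.08 in WT1-high cells, 10.76, 11.65 and 11.79 in WT1-intermediate cells, and 7.83, 6.96 and 8.15 in WT1-negative cells. All 6 WT1-expressing arrays were above the WT1-negative arrays. Fbln1 was 11.0-fold higher in WT1-high than in WT1-negative cells (log2 difference 3.46, SE 0.32, limma adjusted p = 4.0e-06) and 13.5-fold higher in WT1-intermediate cells (3.76, limma adjusted p = 2.6e-06). WT1-high minus WT1-intermediate came to -0.30 (95% confidence interval -0.998 to 0.40, limma adjusted p = 0.68).

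The other 3 tested Fbln1 probes were also called higher in both WT1-expressing groups than in WT1-negative cells. On 2 of these the log2 differences from WT1-negative cells were 3.12 and 2.01 for WT1-high cells, and 2.64 and 2.42 for WT1-intermediate cells. The remaining tested probe was not detected on any WT1-negative array, and was above it by at least 5.69-fold in the WT1-high group and by at least 6.05-fold in the WT1-intermediate group. Here and below, "at least" sets the mean of the brighter group against the lowest level at which any probe was detected on the dim arrays. It holds for the main processing and is no bound over other settings. The sign of WT1-high minus WT1-intermediate varied with the probe: it was 0.48 on the second brightest and between -0.41 and -0.09 on the other tested probes apart from the brightest, and no probe of Fbln1 passed this test. The fifth probe, a RIKEN clone, was detected on 2 WT1-intermediate arrays alone and was not tested.

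**Figure D2:**
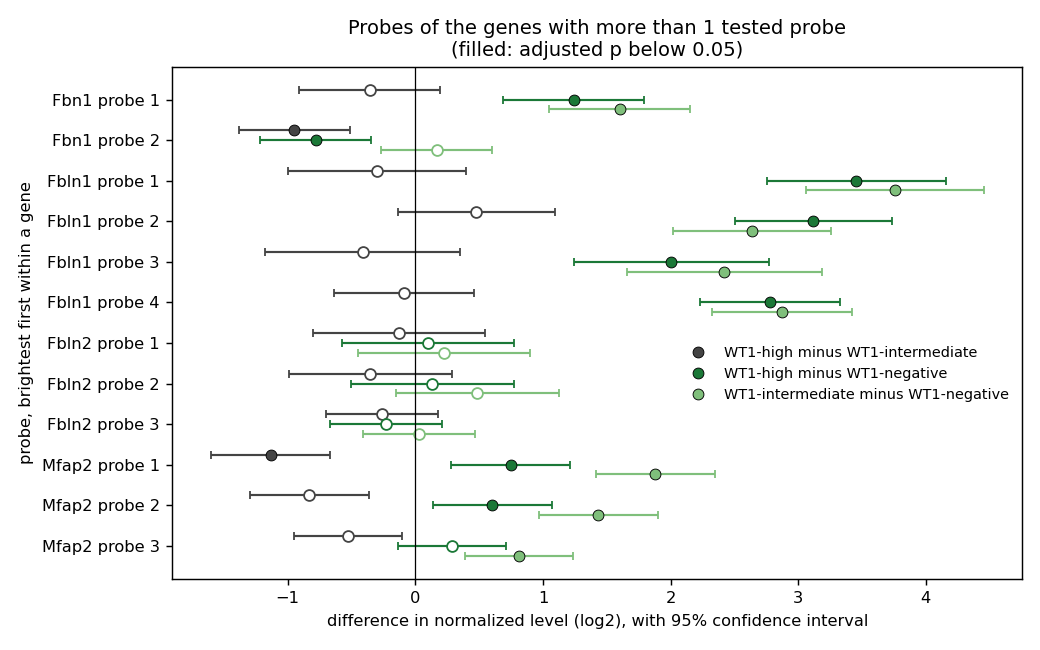
Log2 difference in normalized level (horizontal axis, with 95% confidence intervals) for each tested probe of the genes with more than 1, brightest first within a gene. Filled points have a limma adjusted p below 0.05. The Fbn1 probes point in opposite directions for WT1-high minus WT1-negative (1.24 and -0.78), whereas the 4 Fbln1 probes lie between 2.01 and 3.46 in that comparison.

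Fbln2 (fibulin-2, chromosome 6), which binds fibrillin and basement membrane proteins and has served as a marker of portal fibroblasts, behaved otherwise. Its brightest probe read 10.28, 10.71 and 10.18 in WT1-high cells, 9.98, 10.75 and 10.81 in WT1-intermediate cells, and 9.89, 10.99 and 9.998 in WT1-negative cells. The 3 groups overlapped, and both the highest and the lowest array were WT1-negative. The log2 difference was 0.097 for WT1-high minus WT1-negative (95% confidence interval -0.58 to 0.77, limma adjusted p = 0.80) and 0.22 for WT1-intermediate minus WT1-negative (-0.45 to 0.90, limma adjusted p = 0.55). WT1-high minus WT1-intermediate came to -0.13 (-0.80 to 0.55, limma adjusted p = 0.88). None of the 3 Fbln2 probes passed the test in any of the 3 comparisons. In the comparisons with WT1-negative cells, the highest limit of their confidence intervals was 1.12, on a probe of lower brightness.

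Fbln5 (fibulin-5), which binds tropoelastin and integrins and is required for assembly of elastic fibres, had 1 probe. It read between 4.14 and 4.30 and was not detected on any of the 9 arrays, so it was not tested. Its probe began with gtacaaccaaaaactctcatgagcattcat, and the level of transcripts that lack these bases was not measured.

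Efemp1 (fibulin-3, chromosome 11) is a fibulin of basement membranes and elastic tissues. It read 7.78, 8.26 and 7.59 in WT1-high cells, 7.72, 8.11 and 7.97 in WT1-intermediate cells, and 4.23, 4.35 and 4.21 in WT1-negative cells. It was detected on all 6 WT1-expressing arrays and on no WT1-negative array. The WT1-high group exceeded the WT1-negative group by at least 9.65-fold (limma adjusted p = 5.5e-08), and the WT1-intermediate group exceeded it by at least 10.05-fold (limma adjusted p = 6.0e-08). The fitted log2 differences, 3.61 and 3.67, were as low as 1.65 and 1.69 under other processing settings, where they were still called. WT1-high minus WT1-intermediate came to -0.058 (95% confidence interval -0.47 to 0.36, limma adjusted p = 0.91).

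Efemp2 (fibulin-4, chromosome 19) brings lysyl oxidase to tropoelastin and is needed for elastic fibre formation. It read 9.93, 10.32 and 10.20 in WT1-high cells, 9.38, 10.21 and 9.83 in WT1-intermediate cells, and 8.98, 8.96 and 9.28 in WT1-negative cells. WT1-negative arrays were again the lowest 3 of the 9, with WT1-intermediate replicate 1 next above them. Efemp2 was 2.11-fold higher in WT1-high than in WT1-negative cells (log2 difference 1.08, SE 0.21, limma adjusted p = 0.0011) and 1.66-fold higher in WT1-intermediate cells (0.73, limma adjusted p = 0.011), a difference that median scaling took to -0.0096. WT1-high minus WT1-intermediate came to 0.35 (95% confidence interval -0.12 to 0.81, limma adjusted p = 0.44).

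Upstream sequence was available in RefSeq (build GRCm38.p6) for 7 of the 10 genes, with 12 start sites between them: Fbn1, Fbln1, Fbln2, Fbln5, Efemp1, Efemp2 and Mfap2. The 250 bases before each start were searched on both strands for 4 motifs. GCGNGGGNG, a letter string bound by zinc finger proteins of the WT1 and EGR class, was present before 1 start of Fbln1 and 1 of Fbln5, and in 10.5% of all 32851 start windows. It is shown with 30 bases for each, with the matching letters in capitals; in Fbln1 it overlaps a GC box. Of these genes, Fbln1 was called higher in both WT1-expressing groups, and Fbln5 was not detected.
Fbln1 (chr15:85205978-85206007, + strand): gggagggtccccgcgggcccCGCCCCCGCc
Fbln5 (chr12:101819169-101819198, - strand): tgatgacacgCCCCCTCGCacgcgccccgc
TGANTCA, the AP-1 site with its middle base left free, was present before Efemp1 alone among the 7 genes, and in 6.75% of all start windows. The match in Efemp1 has A in the middle, where the AP-1 consensus has C or G, so it is not that consensus. The upstream 250 bases of Efemp1 are shown, with this match in capitals, since Efemp1 was the member with no detected signal in culture and a detected one on every array from injured liver.
Efemp1 (chr11:28852955-28853204, + strand): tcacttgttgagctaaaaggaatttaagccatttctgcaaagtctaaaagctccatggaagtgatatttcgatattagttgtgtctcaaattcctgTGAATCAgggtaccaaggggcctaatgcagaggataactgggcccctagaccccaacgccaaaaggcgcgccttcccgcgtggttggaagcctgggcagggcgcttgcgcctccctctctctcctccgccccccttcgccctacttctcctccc
GGGCGG, the GC box, was present in 9 of the 12 windows of these genes, at least 1 for each of the 7, and in 32.7% of all start windows. Some Efemp2 windows overlap and share matches. TATAAA was present in none of the 12 and in 12.4% of all. A match of letters describes the sequence and is no measure of binding.

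The microfibril-associated proteins decorate fibrillin. On their brightest probes the arrays of the WT1-expressing subpopulations did not overlap, though not every difference was called. Mfap2 (MAGP-1, chromosome 4), a small protein bound to fibrillin along the microfibril, read 7.55, 7.34 and 7.07 in WT1-high cells, 8.26, 8.43 and 8.67 in WT1-intermediate cells, and 6.57, 6.19 and 6.95 in WT1-negative cells on its brightest probe. The 3 groups did not overlap: WT1-intermediate arrays were the highest and WT1-negative arrays the lowest. Mfap2 was 2.20-fold lower in the WT1-high group than in the WT1-intermediate group (log2 difference -1.14, SE 0.21, limma adjusted p = 0.015). Without WT1-high replicate 8 the limma adjusted p was 0.054, and without WT1-high replicate 29 it was 0.059. Against WT1-negative cells it was 1.68-fold higher in WT1-high cells (0.75, limma adjusted p = 0.010) and 3.68-fold higher in WT1-intermediate cells (1.88, limma adjusted p = 2.2e-05).

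The other Mfap2 probes had the same order of group means. For WT1-high minus WT1-intermediate they gave -0.83 (limma adjusted p = 0.058) and -0.53 (limma adjusted p = 0.18), without overlap of the groups but without passing the test. WT1-intermediate minus WT1-negative was called on both (1.43 and 0.81), and WT1-high minus WT1-negative on 1 of them (0.60, against 0.28 on the other). The probes begin with different bases and no run of 20 bases was shared between any 2 of the 20 probes, or with a probe outside the set.
Mfap2 brightest probe: gctggtctgcttggatttcctacgccccca
Mfap2 middle probe: ttctcagtgcctgggggcagccctcctcag
Mfap2 dimmest probe: atcctctccccccattcccggaccatgtcc

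Mfap5 (MAGP-2, chromosome 6), the close relative of Mfap2, read 8.03, 8.59 and 8.30 in WT1-high cells, 9.05, 9.09 and 10.03 in WT1-intermediate cells, and 8.27, 8.05 and 8.60 in WT1-negative cells. The WT1-intermediate arrays were the highest 3, and the other groups overlapped throughout. Mfap5 was 2.12-fold lower in the WT1-high group than in the WT1-intermediate group (log2 difference -1.08, SE 0.27), with a limma adjusted p of 0.04999, just inside the threshold. Leaving out any 1 of the 9 arrays ended this call, with a limma adjusted p between 0.051 and 0.13 and a difference between -1.25 and -0.76. WT1-high and WT1-negative cells differed by -0.0025 (95% confidence interval -0.59 to 0.58, limma adjusted p = 0.99), and WT1-intermediate cells were 2.11-fold above WT1-negative cells (1.08, limma adjusted p = 0.0048).

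Mfap4 (chromosome 11), a fibrinogen-related glycoprotein that binds tropoelastin and fibrillin, read 7.03, 7.60 and 7.53 in WT1-high cells, 7.79, 9.04 and 8.62 in WT1-intermediate cells, and 5.68, 5.74 and 6.12 in WT1-negative cells. The 3 groups did not overlap. Against WT1-negative cells Mfap4 was 2.91-fold higher in WT1-high cells (log2 difference 1.54, limma adjusted p = 0.00075) and 6.23-fold higher in WT1-intermediate cells (2.64, limma adjusted p = 1.7e-05). WT1-high minus WT1-intermediate was -1.10 (SE 0.29, 95% confidence interval -1.73 to -0.47), which missed the threshold (limma adjusted p = 0.062). With the numbered pairs as a replicate block, the same difference had a limma adjusted p of 0.0047, and 3 member genes were then called. Without WT1-intermediate replicate 1 and with no block it was 0.012. Mfap2, Mfap4 and Mfap5 were the 3 genes of the 9 whose groups did not overlap in this contrast, where 20.1% of all tested probes did not overlap.

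**Figure D3:**
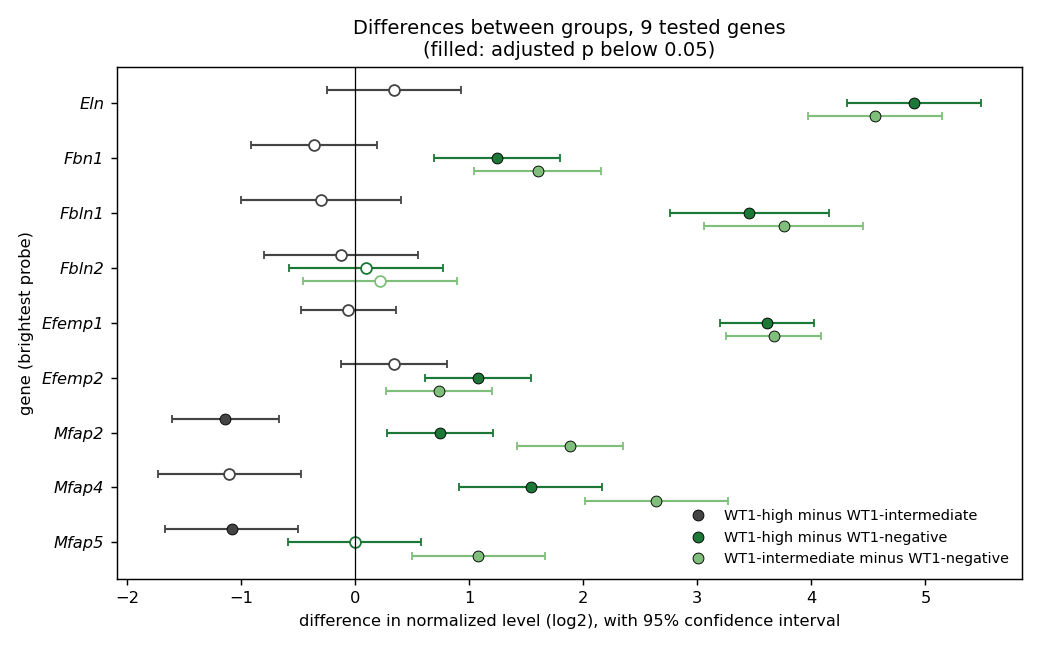
Log2 difference in normalized level (horizontal axis, with 95% confidence intervals) for the brightest probe of the 9 tested genes in the 3 comparisons. Filled points have a limma adjusted p below 0.05. Eln lies at 4.90 and 4.56 against WT1-negative cells, and Mfap2, Mfap4 and Mfap5 are the lowest in the contrast within liver, at -1.14, -1.10 and -1.08.

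Replicates 1 and 8 of the WT1-expressing populations share a number in the labels. WT1-intermediate replicate 30 was taken with WT1-high replicate 29, the number its column carried. Differences were also read within each of these pairs. Mfap2 was lower in the WT1-high sample of 3 of 3 pairs, by -0.71, -1.09 and -1.61 on the log2 scale. Mfap4 differed by -0.77, -1.44 and -1.09, and Mfap5 by -1.02, -0.50 and -1.73. The arrays of these 3 genes did not overlap, so any pairing gives this sign in 3 of 3 pairs. Fbn1 differed by -0.39, -0.094 and -0.59, although its mean difference was positive (0.34) under median scaling. Eln differed by 0.35, 0.54 and 0.14 and Efemp2 by 0.56, 0.11 and 0.37, with the WT1-high sample above its partner in 3 of 3 pairs. Fbln1, Fbln2 and Efemp1 had pairs of either sign. The share of all tested probes with the same sign in 3 of 3 pairs was not counted, so these signs carry no test.

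**Figure D4:**
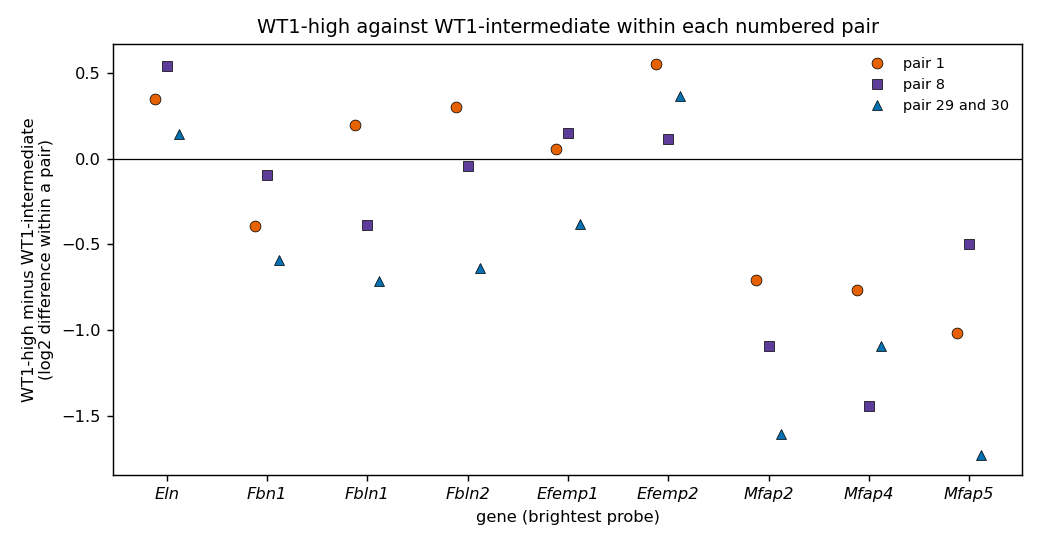
WT1-high minus WT1-intermediate level (log2 difference, vertical axis) within each numbered pair, for the brightest probe of the 9 tested genes. Each point is 1 pair. All 3 pairs lie below 0 for Fbn1, Mfap2, Mfap4 and Mfap5 and above 0 for Eln and Efemp2. For Mfap2, Mfap4 and Mfap5 this follows from arrays that did not overlap.

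Other cell type markers moved along with these differences. Beside the counts of calls below, 2.64% of all tested probes were called lower in WT1-high minus WT1-intermediate. Against WT1-negative cells, 26.5% were called higher in WT1-high cells and 24.4% in WT1-intermediate cells. Of 9 tested portal and adventitial fibroblast markers, 3 were called lower in the WT1-high group than in the WT1-intermediate group: Pi16 (log2 difference -3.27, limma adjusted p = 0.0010), Dpt (-1.96, limma adjusted p = 0.0024) and Ly6c1 (-1.17, limma adjusted p = 0.032). Leaving out single arrays took the limma adjusted p to at most 0.0084 for Pi16, 0.015 for Dpt and 0.13 for Ly6c1. The summed level of the 10 markers was 4085 to 4465 in WT1-high, 8499 to 11695 in WT1-intermediate and 1140 to 3467 in WT1-negative arrays. A sum leans on bright probes such as that of Ly6a, which reached a log2 level of 11.38 on 1 WT1-negative array. Their mean log2 level was 7.70 to 7.95, 8.52 to 9.00 and 5.50 to 5.93. Both had the order of Mfap2 and Mfap4, whereas Eln and Efemp2 had their highest mean in WT1-high cells. Of the 9 tested, 7 were lower in the WT1-high than in the WT1-intermediate group. Thy1 (0.12) and Cd34 (0.36) were higher without passing the test. Thy1 was also the 1 marker called lower in WT1-high and WT1-intermediate cells than in WT1-negative cells (-0.89 and -1.01, limma adjusted p = 0.0038 and 0.0018). Gli1, another marker of this list, was not detected on any array. Of 15 macrophage genes, 11 were called lower in the WT1-high group than in the WT1-intermediate group (summed level 5119 to 8313 against 16378 to 27937, and 56292 to 62349 in WT1-negative cells), as were 3 of 12 endothelial genes. Of 12 mesothelial genes, 12 were called higher in each WT1-expressing group than in WT1-negative cells, as most members were, with summed levels of 37101 to 42260 (WT1-high), 21853 to 30389 (WT1-intermediate) and 449 to 534 (WT1-negative). Of 8 tested hepatocyte genes, 6 were called higher in WT1-high cells and 4 in WT1-intermediate cells, each against WT1-negative cells (median log2 difference 1.87 and 0.93), also the direction of most members. The summed levels of the 10 genes listed were 7072 to 10132 (WT1-high), 4290 to 6562 (WT1-intermediate) and 3641 to 5042 (WT1-negative). Albumin (Alb) was not detected on any array, and no hepatocyte gene was called in WT1-high minus WT1-intermediate (median 0.80). The part of these cell types in the differences of the elastic fibre genes was not tested.

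The stellate cell label was checked against 12 markers. Des, Acta2, Col1a1 and Col1a2 were among those detected on all 9 arrays, whereas Lrat, the retinol-esterifying enzyme of quiescent stellate cells, was detected on 1 array and Rgs5 on none. Des (log2 difference 1.40) and Acta2 (0.76) were called higher and Pdgfrb (-1.28) lower in the WT1-high group than in the WT1-intermediate group. Without single arrays the limma adjusted p reached 0.17 for Des, 0.13 for Acta2 and 0.029 for Pdgfrb. Against WT1-negative cells, 4 of 10 tested markers were called higher and 4 lower, in either WT1-expressing group. Over all tested probes these shares were 26.5% and 33.1% for WT1-high cells, and 24.4% and 33.6% for WT1-intermediate cells. In WT1-high and WT1-intermediate cells, Acta2 (-1.78 and -2.55) and Col1a1 (-1.40 and -1.26) were lower and Col1a2 (2.69 and 2.39) higher. Vascular smooth muscle is another source of elastin. Of 8 of its genes, 5 were undetected in all WT1-high arrays, 4 in all WT1-intermediate arrays and 3 in all WT1-negative arrays. Their summed levels were 403 to 437, 312 to 426 and 738 to 847 in the same order. Myh11 was detected on 3 of 3 arrays of each WT1-expressing group and on 2 of 3 WT1-negative arrays. The part of smooth muscle cells in the level of Eln was not tested.

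The other genes of the elastic fibre were taken from lists by function. Where a pair of log2 differences is given, WT1-high minus WT1-negative comes first and WT1-intermediate minus WT1-negative second. The counts of calls stand beside the shares of all tested probes. Against WT1-negative cells, 26.5% were called higher and 33.1% lower in WT1-high cells, and 24.4% and 33.6% in WT1-intermediate cells. Within the injured liver these shares were 0.904% and 2.64%. Several of the list counts are near these shares. Of 11 tested microfibril and assembly partners, 5 were called higher and 2 lower in WT1-high than in WT1-negative cells, and 7 higher and 2 lower in WT1-intermediate cells. Thsd4, a fibrillin-binding protein that promotes microfibril assembly, had the largest fitted differences (5.62 for WT1-high cells, 5.42 for WT1-intermediate cells), but it was detected on 1 of the 3 WT1-negative arrays, so their size rests on a level near background. It was followed by Ltbp4, which works with fibulin-5 in elastin deposition (5.13 and 4.65), and by Ltbp1, which anchors latent transforming growth factor β (3.09 and 3.17). Emilin2, of the elastin microfibril interfacer family, fell against WT1-negative cells (-1.62 and -0.73), as did Adamtsl5 (-1.71 and -1.92). Emilin2 was also the 1 gene of this list called in WT1-high minus WT1-intermediate (-0.89, limma adjusted p = 0.031), and leaving out single arrays took that p up to 0.099. The list's median for WT1-high minus WT1-negative was 0.30, beside -0.098 over all tested probes.

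Of 4 tested genes of the lysyl oxidases and copper transport, 1 was called higher and 1 lower against WT1-negative cells, in either WT1-expressing group. Loxl1, the cross-linking enzyme tied most closely to elastin renewal, was higher by 2.36 and 2.03 on the log2 scale. Loxl4 fell by 0.56 and by 0.53, and the latter difference was 0.0034 under median scaling on detected probes. Lox, the founding enzyme, had differences of -0.40 and -0.50 that did not pass the test (limma adjusted p = 0.13 and 0.066). None of the 4 was called within the injured liver.

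Of 7 tested elastin-degrading proteases, 3 were called higher and 3 lower in WT1-high than in WT1-negative cells, and 4 higher and 2 lower in WT1-intermediate cells. Mmp2, a gelatinase of mesenchymal cells, was higher by 2.55 and 3.19, and Ctss, a lysosomal elastase of macrophages, by 1.28 and 3.02. Mmp14, the membrane activator of Mmp2, was higher by 0.66 and 0.61, and the latter difference was -0.016 under median scaling. Leaving out single arrays took its limma adjusted p up to 0.11 and 0.12. Ctsk, a lysosomal protease best known from osteoclasts, exceeded the WT1-negative group in WT1-intermediate cells (log2 difference 1.39, limma adjusted p = 0.0053, but 0.16 under median scaling). Its WT1-high arrays lay below the WT1-intermediate arrays without passing the test (-1.32, limma adjusted p = 0.065). Mmp9 (-3.50 and -3.08) and Ctsl (-2.34 and -2.35) were lower in both. Mmp12, the macrophage elastase, was lower in WT1-high than in WT1-negative cells (-1.998, limma adjusted p = 0.014), although their arrays overlapped. Mmp12 (-2.63, limma adjusted p = 0.037) and Ctss (-1.74, limma adjusted p = 0.024) were also the 2 proteases called lower in the WT1-high group than in the WT1-intermediate group, alongside the macrophage genes above. Both calls were lost without some single arrays (limma adjusted p up to 0.13 for Mmp12 and up to 0.10 for Ctss).

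All 5 tested protease inhibitors were called higher in WT1-high than in WT1-negative cells, and 4 of the 5 in WT1-intermediate cells. Slpi, an inhibitor of neutrophil elastase, was higher by 6.05 and 6.25. Timp3, the matrix-bound tissue inhibitor of metalloproteinases, was higher by 2.35 and 1.91, and Timp2 by 1.38 and 1.21. Timp1 was higher by 1.43 in WT1-high cells, and its difference of 0.93 in WT1-intermediate cells did not pass the test (limma adjusted p = 0.063). No inhibitor was called within the injured liver.

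Of 6 tested elastic fibre receptors, none was called higher and 1 lower in WT1-high than in WT1-negative cells. This was Glb1, whose splice variant gives the elastin binding protein (-0.997, and -1.32 for WT1-intermediate cells). In WT1-intermediate cells Itgb1 was also lower (-0.66) and Itgb5, which pairs with integrin αv, higher (0.65, but -0.081 under median scaling). Itgb5 was the receptor called in WT1-high minus WT1-intermediate (-0.94, limma adjusted p = 0.0053), with WT1-high arrays between 9.22 and 9.47 and WT1-intermediate arrays between 10.23 and 10.45.

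**Figure D5:**
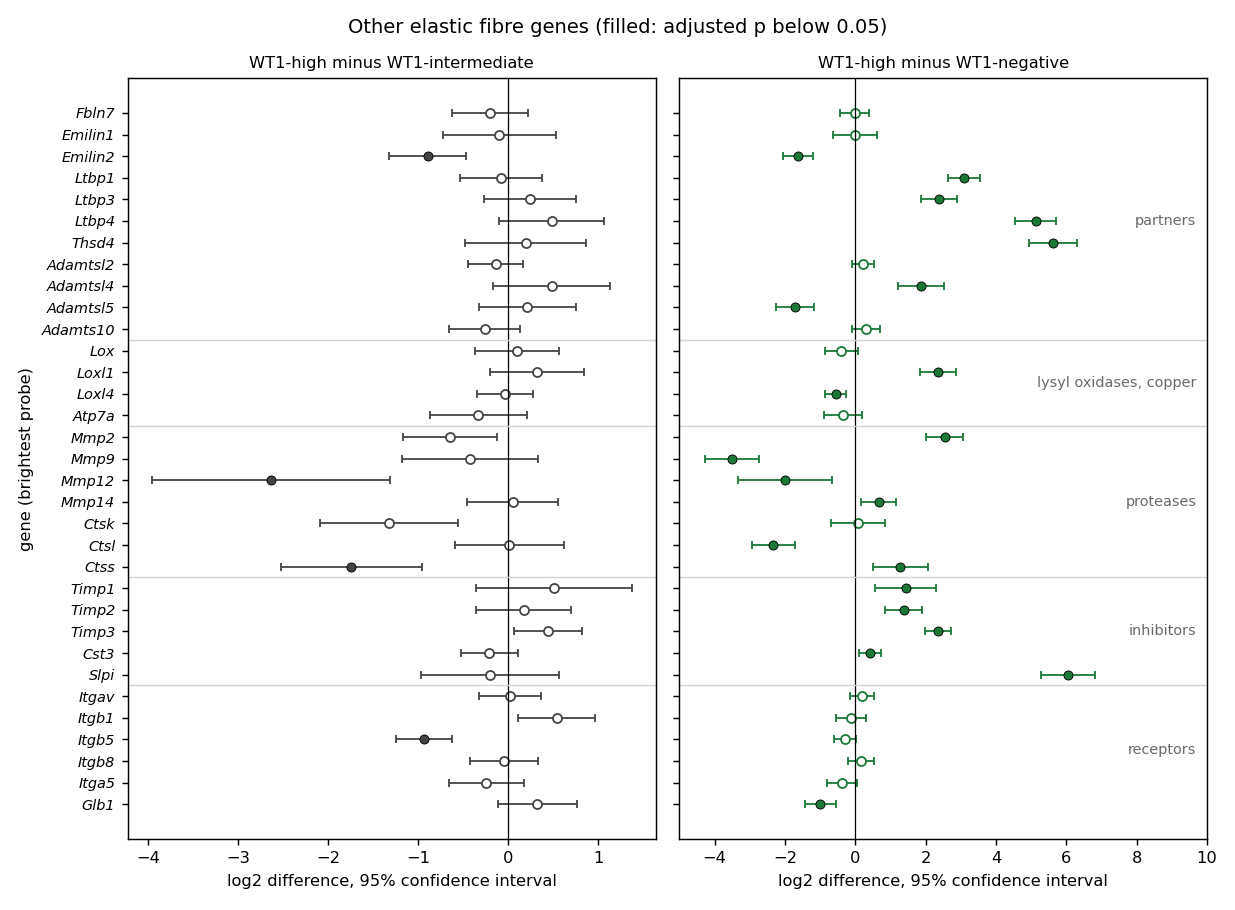
Log2 difference in normalized level (horizontal axes, with 95% confidence intervals) of the other tested elastic fibre genes, grouped by list, for WT1-high minus WT1-intermediate (left) and WT1-high minus WT1-negative (right). Filled points have a limma adjusted p below 0.05. On the left Emilin2, Mmp12, Ctss and Itgb5 are called, all below 0, and on the right Thsd4 (5.62), Ltbp4 (5.13) and Slpi (6.05) lie farthest from 0.

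Over the 9 arrays, the genes with a pattern most like that of Eln were Il17rd, Cdh3, C2, Nme7 and Cd34 (Pearson r from 0.995 to 0.997, across arrays that include both culture and liver). Those most like Fbn1 were Lum, Col6a3, Ndn, 9030425E11Rik and Olfml2b (r from 0.981 to 0.991). Lum, encoding lumican, and Col6a3, encoding a chain of collagen VI, are matrix genes like Fbn1 itself. These correlations describe 9 points in 3 groups and carry no test.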

How the data were processed

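RNA from 9 sorted samples was hybridised to Illumina MouseWG-6 v2.0 arrays, 1 array per sample. The authors deposited summary probe profiles: 1 intensity per probe, linear, without background correction or normalization. Every intensity had a deposited detection p-value from the array's 936 negative controls. A joined table deposited by the authors held the same values (largest difference 0) and was not used. The column numbered 29 of GFP low cells was taken as WT1-intermediate replicate 30, the array of that group left over.

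Intensities were corrected with negative controls, offset by 16, quantile normalized and put on the log2 scale (neqc of limma 3.58.1 in R 4.3.3); the level is relative, and probes of different genes are not comparable. Probes with detection p below 0.05 on at least 3 arrays were kept (20573 of 45281). Groups were compared with lmFit and eBayes over all 9 arrays, two-sided, with Benjamini-Hochberg adjustment. Mean intensity was 147 to 289 per array and 38.1% to 43.7% of probes were detected; the number of arrays limits the precision. The labels do not state that WT1-negative samples came from separate animals.

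Members and lists were chosen with earlier results of these data known. Each member is reported by every probe. Of other lists, genes called in WT1-high minus WT1-intermediate and up to 3 largest called rises and falls without overlap against WT1-negative cells are named (Lox, Timp1 in WT1-intermediate cells and the markers are additions). Similarity was ranked by Pearson r (5 genes each). Pairing rests on the shared label numbers 1 and 8 and on the column number 29 for WT1-intermediate replicate 30. It also rests on the 3 animals given for the WT1-expressing populations. Deviations from group means correlated at 0.35, 0.34 and 0.47 within pairs, and between -0.39 and 0.03 otherwise. Sequences are from the array annotation and RefSeq. The fit was tested on simulated data. Alternatives covered background, offset, normalization, filter, samples fitted, weights, replicate block, a 2-fold minimum, probe choice and leaving out each array. A marker of the stellate cell list is not reported here.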

Additional observations from a re-analysis of the deposited data

How the results depend on the processing

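Against WT1-negative cells the count of called members, 7 in the WT1-high and 8 in the WT1-intermediate contrast, was 7 and 8 without each of the 9 arrays in turn; it fell to 3 and 5 in a test against a 2-fold minimum, to 6 and 6 with median scaling, and to 6 and 7 with detection on all 9 arrays, which left Efemp1 untested. The sizes varied more than the calls. Over the alternatives Eln ranged from 3.49 to 5.14 for WT1-high minus WT1-negative and from 3.17 to 4.80 for WT1-intermediate minus WT1-negative. Efemp1 ranged from 1.65 to 3.83 and from 1.69 to 3.83. For WT1-high minus WT1-intermediate the count of 2 was less stable. It was 1 with no background correction, with an offset of 50, with the compared groups alone, with array weights and with a replicate block by the exact numbers. It was 0 with median scaling, with no filter on dim probes and in the test against a 2-fold minimum. Leaving out single arrays gave 0 to 2 (0 without WT1-high replicate 8 or 29). With a replicate block, fixed or random, it was 3. In the block by the exact numbers, replicates 29 and 30 have terms of their own. Its WT1-high minus WT1-intermediate difference therefore rests on replicates 1 and 8 alone. Mfap2 lost its call under median scaling (limma adjusted p = 0.29), without the filter (0.066), with the exact-number block (0.10), against a 2-fold minimum, and without WT1-high replicate 8 (0.054) or 29 (0.059). The cause was not tested.

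Median scaling on all probes, most of them undetected, moved the median difference of all tested probes to 0.45 for WT1-high minus WT1-intermediate and to -0.44 for WT1-intermediate minus WT1-negative. Signs turned there for Fbn1 (0.34), Fbln1 (0.32), Fbln2 (0.52) and Efemp1 (0.63) in WT1-high minus WT1-intermediate, all but Fbln2 and Efemp1 below that median, and for Fbln2 (-0.45) and Efemp2 (-0.0096) in WT1-intermediate minus WT1-negative, where Efemp2 lost its call. Mfap5 lost its call there too (0.33, limma adjusted p = 0.32), as did Mfap2 in WT1-high minus WT1-negative (0.77, limma adjusted p = 0.053). Median scaling on probes detected on all 9 arrays, chosen after seeing the data, gave counts of 2, 7 and 8. Small uncalled differences also turned. In WT1-high minus WT1-intermediate these were Fbln2 with the exact-number block (0.13) and without single arrays (-0.39 to 0.022), and Efemp1 with cyclic loess (0.031), with the exact-number block (0.10) and without single arrays (-0.25 to 0.085). In WT1-high minus WT1-negative they were Fbln2 without single arrays (-0.10 to 0.45), and Mfap5 with cyclic loess (0.0082), with the added median scaling (0.020) and without single arrays (-0.15 to 0.14). The replicate block changed no call of a member beside that of Mfap4, except the exact-number block, under which Mfap2 and Mfap5 were not called. A block by BeadChip was not run. Of the other named genes, no called difference turned within the injured liver, and against WT1-negative cells Loxl4 (0.0034, added median scaling), Mmp14 (-0.016) and Itgb5 (-0.081; both median scaling) turned in WT1-intermediate cells. Probes near background limit Fbln5, Efemp1 in WT1-negative cells and the weaker Fbn1 probes.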
